A study of Mus musculus with 48 samples.

Results

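The genes Apoa1, Apoa2, Apoa4, Apob, Apoc1, Apoe, Apom, Mttp, Pltp and Scarb1 were followed across the livers of 48 mice measured by RNA-seq. They encode apolipoproteins of very-low-density (VLDL), low-density (LDL) and high-density (HDL) lipoproteins, together with proteins that assemble, remodel or take up these particles. They were taken by gene name, and 10 of the 29221 genes in the deposited tables were matched. All mice were adults with a floxed Pparg gene. Each received an AAV8 vector after 16 weeks on diet. AAV8-TBG-Cre, in which the hepatocyte promoter TBG drives Cre recombinase, gave the groups labelled knockout, and AAV8-TBG-null gave the controls. Females ate a low fat (LF) diet for 34 weeks, labelled healthy, a high fat (HF) diet for 34 weeks, labelled steatosis, or HF for 18 weeks and then a fat-rich diet with added cholesterol and fructose (HFCF) for 16 weeks, labelled steatohepatitis. Males ate the HF or the HFCF diet on the same schedules. Each diet was given to controls and to labelled knockouts, with 4 livers in each female group and 6 in each male group.

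The liver packs triglyceride and cholesterol into VLDL around one molecule of apolipoprotein B. Microsomal triglyceride transfer protein, encoded by Mttp, loads lipid onto that protein in the endoplasmic reticulum, and the smaller apolipoproteins E and C join the particle and steer its later lipolysis and uptake. HDL forms separately around apolipoproteins A-I and A-II, gains phospholipid through the transfer protein encoded by Pltp, and hands cholesteryl ester back to the hepatocyte through the receptor encoded by Scarb1.

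Library totals ran from 15338239 to 22072884 reads on genes. Mean Pparg was not lower in any group labelled knockout than in its controls. In HFCF males it had 55.9 ± 6.05 CPM (SD, n = 6) in labelled knockouts against 32.0 ± 5.59 CPM (SD, n = 6) in controls. A count per whole gene may include reads outside the deleted part, so it does not check the deletion, and the groups are called labelled knockouts throughout. The p-values below judge differences against the spread between mice within groups. A set of 3 libraries stood apart from their groups in marker sums. Female HFCF labelled-knockout replicate 1 had summed CPM (read counts scaled to the size of the library) of 6 hepatocyte markers of 101900 against 56936 to 71173 in the other 3, and of 8 markers of monocyte-derived and lipid-associated macrophages of 593.4 against 927 to 997. Female HF control replicate 1 had a sum of the same macrophage markers of 482 against 121 to 226, and male HFCF control replicate 1 one of 374 against 937 to 1089. Dixon's test marked 3 of the 10 genes in the first and in the last of these livers, and none in female HF control replicate 1. Results that rest on them are given with and without them. Each hepatocyte marker was detected in every group. The small intestine also makes Apoa4, Apob and Mttp. Of 6 small intestine markers, 3 (Fabp2, Vil1 and Lgals4) were measured, with a sum of 85.9 to 210.5 CPM over all livers. The other 3 were not found by name in the deposited tables. The part of small intestine cells in the levels was not tested.

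Upstream sequences are shown for 4 genes, which were picked by their values in the HFCF comparisons below. Apoa1 and Apoa2 were each called lower in 3 of these comparisons. Apoa4 was called higher in 4 and Pltp in 2, and Pltp was not called in the others. RefSeq promoter entries (GRCm38.p6) matched 8 of the 10 genes. Each line runs 5′ to 3′ on the gene's strand and ends at the base before the gene start in the deposited tables, at chr9:46228380-46228579 (plus strand), chr1:171224804-171225053 (plus), chr9:46240594-46240695 (plus) and chr2:164857712-164857958 (minus). Capitals mark motif matches.
Apoa1: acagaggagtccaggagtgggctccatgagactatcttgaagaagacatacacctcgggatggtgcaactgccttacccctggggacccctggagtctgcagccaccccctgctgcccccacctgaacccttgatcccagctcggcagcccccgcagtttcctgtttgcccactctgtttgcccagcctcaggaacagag
Apoa2: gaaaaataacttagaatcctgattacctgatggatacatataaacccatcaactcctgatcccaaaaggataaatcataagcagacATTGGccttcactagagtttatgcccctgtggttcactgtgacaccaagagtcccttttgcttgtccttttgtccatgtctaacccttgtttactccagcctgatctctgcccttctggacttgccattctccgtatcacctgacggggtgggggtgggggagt
Apoa4: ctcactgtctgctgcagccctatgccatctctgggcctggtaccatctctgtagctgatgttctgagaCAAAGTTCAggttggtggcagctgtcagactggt
Pltp: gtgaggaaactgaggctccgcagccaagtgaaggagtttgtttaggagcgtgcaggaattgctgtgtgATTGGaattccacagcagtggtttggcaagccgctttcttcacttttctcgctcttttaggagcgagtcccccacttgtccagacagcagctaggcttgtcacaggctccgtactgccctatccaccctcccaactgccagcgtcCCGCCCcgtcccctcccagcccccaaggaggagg
Both strands were searched for CAAAGTNCA (a form bound by the hepatocyte factor HNF4A), AGGTCA (the core hexamer of nuclear receptor sites), a direct repeat of that hexamer with a spacer of 1 base, GGGCGG and CCAAT. The Apoa4 window of 102 bases held 1 match to CAAAGTNCA, a motif found in 0.426% of 32851 promoter windows of that length. Apoa2 held 1 CCAAT on the opposite strand, against 33.8% of windows of its length. Pltp held 1 CCAAT and 1 GGGCGG, both on the opposite strand, against 33.6% and 32.3% of windows. The Apoa1 window matched none of the 5 motifs. A match is a description of the letters only.

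The 10 genes spanned a wide range of levels per length. In the authors' FPKM (fragment counts scaled by gene length and library size), the median over 48 libraries was 10923 for Apoe, 9369.8 for Apoa2, 6107 for Apoa1 and 3527 for Apoc1. It was 452 for Apoa4, 408 for Apob, 101 for Apom, 52.8 for Mttp, 33.9 for Pltp and 27.5 for Scarb1. Apoe, Apoa2, Apoa1 and Apoc1 were thus the most abundant per length, and Mttp, Pltp and Scarb1 the least. Together the 10 genes took 3.74% to 5.82% of a library's reads, with a median of 4.63%.

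Levels across groups are given in CPM, scaled by trimmed-mean-of-M-values factors. Apoa4 and Pltp varied most between livers, with the highest library 14.1 and 12.2 times the lowest. Scarb1 varied least, with a ratio of 1.56, followed by Mttp with 1.96. Between group means the ratio of highest to lowest was 5.52 for Apoa4, 4.05 for Pltp, 3.4 for Apom and 2.12 for Apoa1, and from 1.23 to 1.78 for the other 6. Female LF labelled knockouts had the highest mean of Apoa1, Apom, Mttp and Pltp. When the 10 groups were ordered by mean, neighbours in that order overlapped in their values for every one of the genes, except that all male HFCF labelled knockouts lay below the next group, female HFCF controls, in Apoe.

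**Figure D1:**
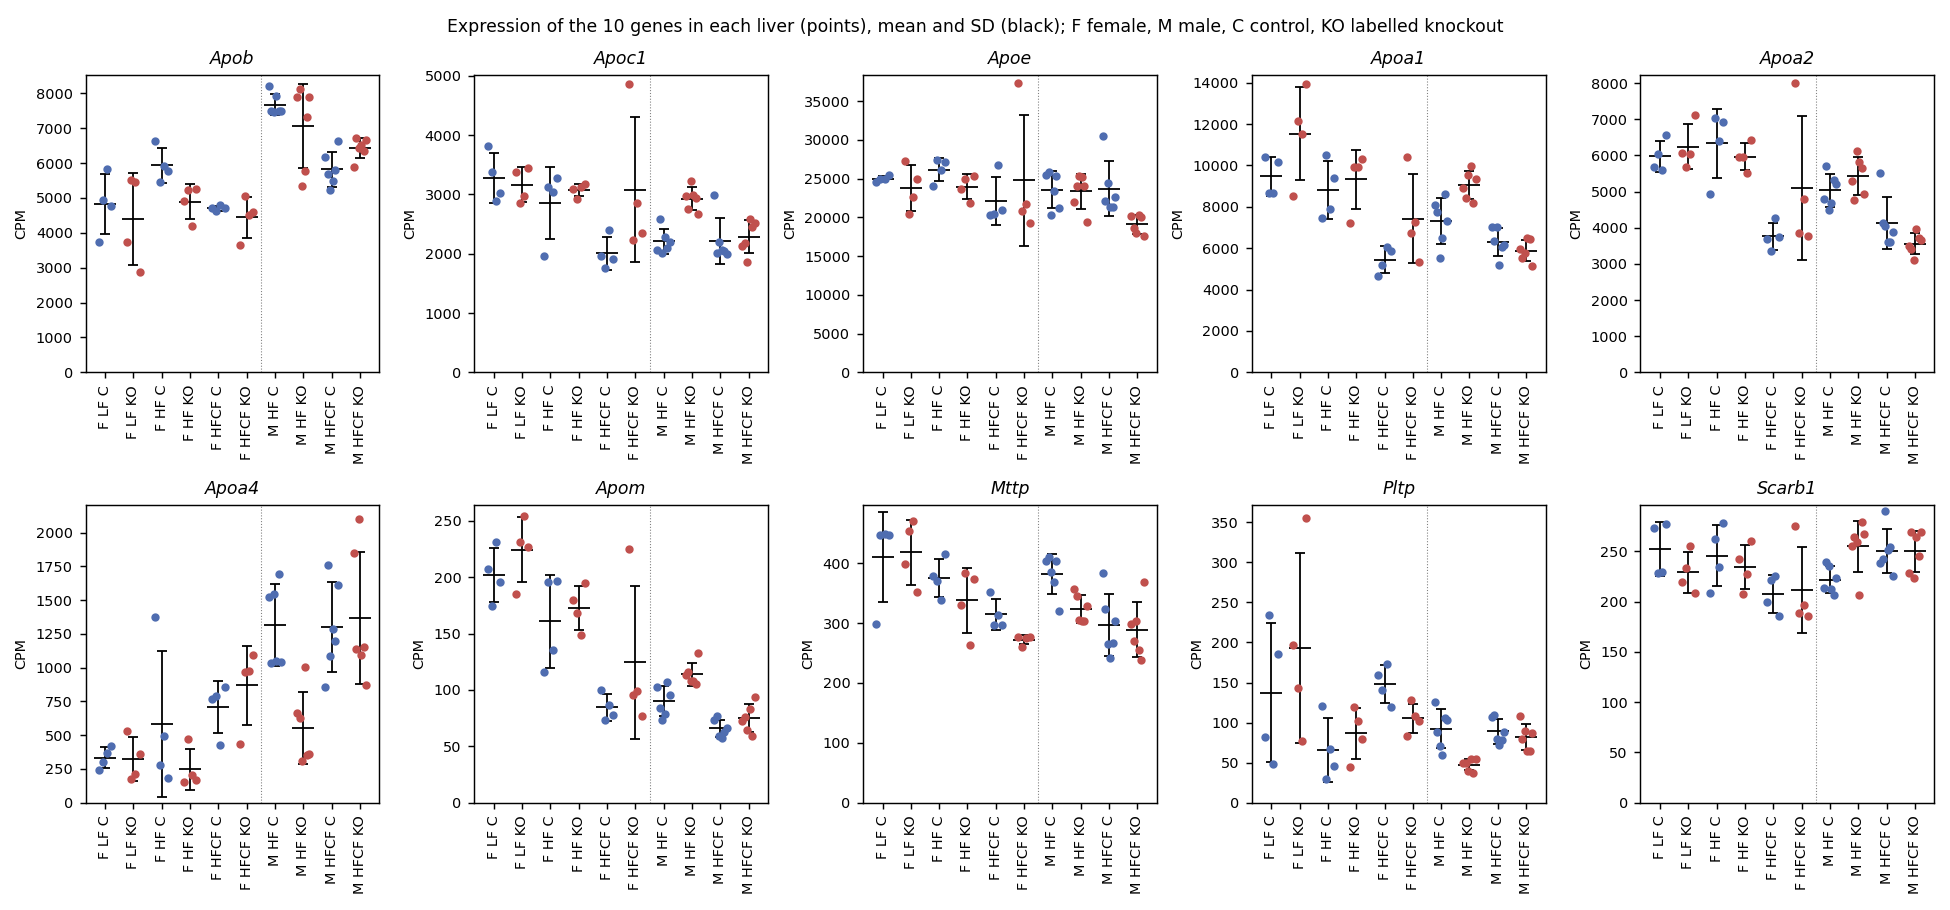
Expression of the 10 genes in CPM (vertical axes, from 0) by group (horizontal axes); each point is 1 liver, black marks show the mean and SD, blue points are controls and red points labelled knockouts. Apoa4 was low in male HF labelled knockouts, with a highest value of 1005 CPM against a lowest of 1037 CPM in their controls.

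Of 6 comparisons of HFCF with LF or HF, Apom fell in 4, Apoa1 and Apoa2 each fell in 3, and Apoa4 rose in 4. A gene was called where edgeR's quasi-likelihood adjusted p was under 0.05. In control females, HFCF against LF called 5 of the 10 genes (Apoa1, Apoa2, Apoc1 and Apom lower, Apoa4 higher), beside 35.2% of 14755 genes tested, with 18.4% higher and 16.8% lower. HFCF against HF in control females called 4 (Apoa1, Apoa2 and Apom lower, Pltp higher), beside 30.8% of 14701 genes tested, with 16.9% higher and 13.8% lower. In control males the same diets called 4 (Apob, Apom and Mttp lower, Scarb1 higher), beside 22.3% of 14475 genes tested, with 13% higher and 9.31% lower. Labelled-knockout males gave the most calls, 7 (Apoc1, Apoe, Apoa1, Apoa2 and Apom lower, Apoa4 and Pltp higher), beside 41.7% of 14314 genes tested, with 21.6% higher and 20% lower. Labelled-knockout females gave 1 for HFCF against HF (Apoa4 higher), beside 14.5% of 14650 genes tested, with 8.44% higher and 6.01% lower. Against LF they gave 2 (Apoa4 higher, Mttp lower), beside 12% of 14614 genes tested, with 8.25% higher and 3.74% lower. The HF diet against LF called 0 of the 10 in control females and 0 in labelled-knockout females. At an unadjusted p under 0.05 the counts were 0 and 2, beside 16.3% and 13.4% of all genes. The calls by edgeR's adjusted p stood beside 0.696% of 14216 genes tested, with 0.443% higher and 0.253% lower in controls. In labelled knockouts they stood beside 0.155% of 14214 genes tested, with 0.0704% higher and 0.0844% lower. DESeq2's Wald test called 0 of the 10 in either, beside 2.55% and 1.99% of all genes with a read.

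Between labelled knockouts and controls, edgeR made calls in HF males alone. There 6 of the 10 genes were called, beside 18.5% of 14041 genes tested, with 8.57% higher and 9.88% lower. Apoc1, Apoa1 and Apom were higher in labelled knockouts, and Apoa4, Pltp and Mttp were lower. A single fit of all 48 libraries called 3 (Apoc1, Apoa4 and Pltp), beside 10.5% of all genes. The other 4 comparisons of labelled knockouts with controls called 0 of the 10, beside 2.21% of 14685 genes tested, with 0.933% higher and 1.27% lower in HFCF males, 0.0534% of 14980 genes tested, with 0.00668% higher and 0.0467% lower in HFCF females and 0% in LF and in HF females. At an unadjusted p under 0.05 these counts were 1 (Apoe), 3, 0 and 1, beside 14.2%, 8.95%, 2.49% and 8.03% of all genes. DESeq2's Wald test called 1, 0, 0 and 0, beside 2.51%, 0.312%, 0.0283% and 0.238%. Males against females called 2 of 10 in HF controls (Apob higher, Apom lower in males), beside 18.1% of 14492 genes tested, with 8.52% higher and 9.58% lower, and 1 in HFCF controls (Pltp lower in males), beside 2.63% of 15054 genes tested, with 1.3% higher and 1.34% lower. Of the 7 tests of whether one difference departs from another, none called any of the 10 genes by edgeR, with 19 of 70 values at an unadjusted p under 0.05, beside 10.5% over all genes. DESeq2's Wald test called 3 where the labelled-knockout difference in males was compared between HFCF and HF, beside 2.18% of all genes by the same test. It called 1 where the diet difference in controls was compared between the sexes, beside 0.448%. By edgeR the test in males called 1.56% of 15096 genes tested, with 0.987% higher and 0.57% lower. So the count of 6 in HF males and of 0 in HFCF males does not by itself show a difference between diets.

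**Figure D2:**
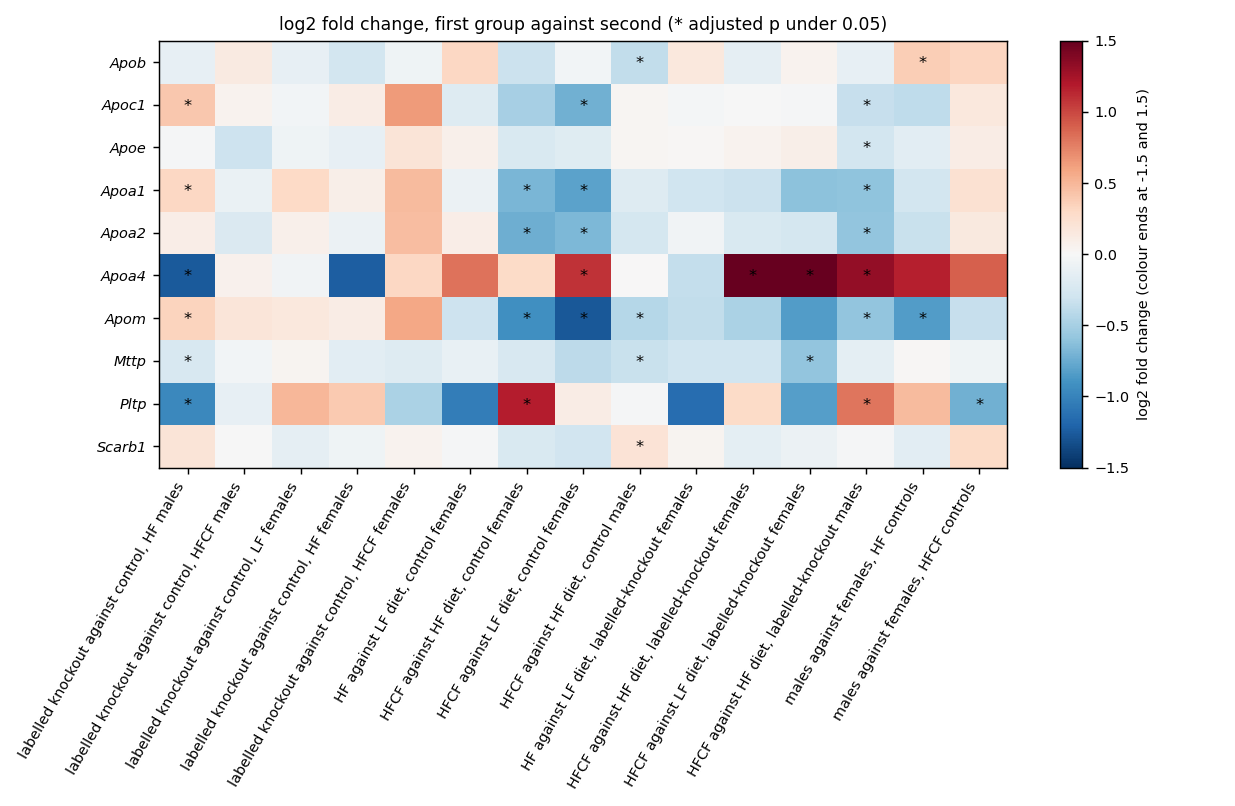
The log2 fold change of each gene (rows) in 15 comparisons (columns, first group against second); red is higher and blue lower in the first group, the colour scale ends at -1.5 and 1.5, and stars mark adjusted p under 0.05. Apom and Apoa1 are blue in the columns of HFCF against HF or LF, where Apoa4 is red or near 0.

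Apob encodes the structural protein of VLDL and LDL (ENSMUSG00000020609, chr12:7977648-8016835, plus strand). In male HF controls it had 7466 CPM at the lowest, 7494 at the median and 8203 at the highest, and in male HFCF controls 5224 CPM at the lowest, 5742 at the median and 6621 at the highest. Every HFCF liver lay below every HF liver. Apob fell by 22.7% (log2 fold change -0.37 ± 0.08 (SE), adjusted p = 0.00488). Female HF controls had 5443, 5772, 5906 and 6631 CPM, and female HFCF controls 4615, 4702, 4707 and 4794 CPM. The female groups did not overlap either, but the difference was not called (-0.33 ± 0.11 (SE), adjusted p = 0.0553). Male HF controls lay wholly above female HF controls, 1.29-fold (0.36 ± 0.09 (SE), adjusted p = 0.0167), a call that is lost without female HF control replicate 2. Between labelled knockouts and controls its log2 fold changes ran from -0.28 in HF females to 0.14 in HFCF males, and none was called.

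Mttp (ENSMUSG00000028158, chr3:138089854-138144968, minus strand) had 320.5 CPM at the lowest, 394 at the median and 409.7 at the highest in male HF controls. Male HF labelled knockouts had 304 CPM at the lowest, 317 at the median and 356 at the highest, and male HFCF controls 241 CPM at the lowest, 285 at the median and 384 at the highest. Both ranges reached into that of the HF controls, and both stayed below the HF control median. Mttp fell by 15.6% in HF labelled knockouts (-0.25 ± 0.07 (SE), adjusted p = 0.0241) and fell by 20.9% on HFCF in control males (-0.34 ± 0.10 (SE), adjusted p = 0.0252). The first call was lost without control replicate 1 or 5 or labelled-knockout replicate 3 or 5, and the second without HF replicate 2 or HFCF replicate 3, 4 or 5. The first was also lost in a single fit of all 48 libraries (-0.24, adjusted p = 0.149). Female LF labelled knockouts had 351, 398, 453 and 469.6 CPM, and female HFCF labelled knockouts 261, 274, 276 and 277 CPM. Here every HFCF liver was below every LF liver, and Mttp fell by 33.4% (-0.59 ± 0.14 (SE), adjusted p = 0.0206). This call was lost without LF replicate 2 or 3 or HFCF replicate 2, 3 or 4. In control females the same diets gave -0.39 ± 0.14 (SE), adjusted p = 0.05, which narrowly missed the threshold, and no comparison called Mttp higher.

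Apoc1 and Apoe, which modulate lipolysis and receptor binding of triglyceride-rich particles, lie side by side on chromosome 7 (Apoc1: ENSMUSG00000040564, chr7:19689481-19692660, minus strand; Apoe: ENSMUSG00000002985, chr7:19696109-19699188, minus strand). Apoc1 in male HF controls had 2011 CPM at the lowest, 2146 at the median and 2585 at the highest, and in male HF labelled knockouts 2675 CPM at the lowest, 2951 at the median and 3232 at the highest. The groups did not overlap, and Apoc1 rose 1.32-fold in labelled knockouts (0.40 ± 0.07 (SE), adjusted p = 0.00137). Male HFCF labelled knockouts had 1853 CPM at the lowest, 2312 at the median and 2594 at the highest, all below the HF labelled knockouts, a change of -0.34 ± 0.08 (SE), adjusted p = 0.00463. In control males HFCF against HF gave 0.03 ± 0.10 (SE), adjusted p = 0.877. Female controls had 2887, 3026, 3386 and 3815 CPM on LF and 1754, 1911, 1964 and 2409 CPM on HFCF. These female groups were apart, and Apoc1 fell by 39.1% (-0.72 ± 0.15 (SE), adjusted p = 0.00523). The difference from HF in control females was not called (-0.49 ± 0.17 (SE), adjusted p = 0.0568), but was without female HF control replicate 1 (-0.64 ± 0.13 (SE), adjusted p = 0.00392).

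Apoe was the steadiest of the abundant apolipoprotein genes across groups. Male HF labelled knockouts had 19373 CPM at the lowest, 24059 at the median and 25289.5 at the highest, and male HFCF labelled knockouts 17565 CPM at the lowest, 19385 at the median and 20267 at the highest. The groups overlapped in part, and Apoe fell by 17.3% (-0.27 ± 0.09 (SE), adjusted p = 0.0179), its 1 call in 15 comparisons. Male HFCF controls had 21328 CPM at the lowest, 22338 at the median and 30484 at the highest, all above the male HFCF labelled knockouts. That difference was not called by edgeR (-0.31 ± 0.10 (SE), adjusted p = 0.155) and was called by DESeq2's Wald test. Without control replicate 1, the highest of them, edgeR gave -0.23 ± 0.07 (SE), adjusted p = 0.0759. Female HFCF labelled knockouts had 19223, 20827, 21764 and 37385 CPM, where the highest value is replicate 1.

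Apoa1, the main structural protein of HDL (ENSMUSG00000032083, chr9:46228580-46230466, plus strand), fell on HFCF in 3 of the comparisons. Female controls had 8648, 8669, 10174 and 10425 CPM on LF, 7466, 7916, 9403 and 10510.0 CPM on HF and 4633, 5203, 5888 and 6055 CPM on HFCF. Every HFCF liver was below every LF and every HF liver, while LF and HF overlapped. Apoa1 fell by 42.9% against LF (-0.81 ± 0.15 (SE), adjusted p = 0.00287) and fell by 37.8% against HF (-0.68 ± 0.16 (SE), adjusted p = 0.0127). Male labelled knockouts had 8203 CPM at the lowest, 9126 at the median and 9956 at the highest on HF. On HFCF they had 5136 CPM at the lowest, 5862 at the median and 6486 at the highest. Those groups did not overlap, and Apoa1 fell by 34.4% (-0.61 ± 0.08 (SE), adjusted p = 3.5e-05). Male HF controls had 5539.6 CPM at the lowest, 7541 at the median and 8600.3 at the highest, and male HFCF controls 5204 CPM at the lowest, 6235 at the median and 7041 at the highest. Control males did not pass the test for the same diets (-0.19 ± 0.11 (SE), adjusted p = 0.244). Male HF labelled knockouts were 1.24-fold higher than their controls with partial overlap (0.30 ± 0.10 (SE), adjusted p = 0.0418), a call lost without control replicate 3, 4 or 6 or labelled-knockout replicate 1, 3, 4 or 6. It was also lost in a single fit of all 48 libraries (0.31, adjusted p = 0.109).

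Apoa2, another structural protein of HDL (ENSMUSG00000005681, chr1:171225054-171226379, plus strand), followed a like course by diet. In female controls it had 5606, 5681, 6041 and 6558 CPM on LF, 4944, 6408, 6926 and 7042 CPM on HF and 3367, 3687, 3749 and 4269 CPM on HFCF. Again HFCF lay wholly below both other diets. Apoa2 fell by 37.2% against LF (-0.67 ± 0.13 (SE), adjusted p = 0.00357) and fell by 40.0% against HF (-0.74 ± 0.15 (SE), adjusted p = 0.00865). Male labelled knockouts had 4775 CPM at the lowest, 5479.7 at the median and 6124 at the highest on HF, and 3112 CPM at the lowest, 3569 at the median and 3977 at the highest on HFCF. They were apart as well, with a change of -0.60 ± 0.08 (SE), adjusted p = 5.1e-05. Control males gave -0.26 ± 0.11 (SE), adjusted p = 0.0865, and without male HFCF control replicate 1 -0.35 ± 0.07 (SE), adjusted p = 0.00163, which is a call beside 37% of all genes. No comparison of labelled knockouts with controls called Apoa2, and values ran from -0.21 to 0.46 on the log2 scale.

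Apom, an HDL apolipoprotein that carries sphingosine 1-phosphate (ENSMUSG00000024391, chr17:35128997-35132050, minus strand), was called in 6 comparisons, the most of the 10 genes. Female controls had 174, 195, 207 and 231 CPM on LF, 116, 135, 196 and 196 CPM on HF and 73.5, 78.0, 86.2 and 99.99 CPM on HFCF. HFCF lay wholly below LF and HF. Apom fell by 58.4% against LF (-1.27 ± 0.12 (SE), adjusted p = 0.000291) and fell by 47.0% against HF (-0.92 ± 0.18 (SE), adjusted p = 0.00803). Male controls had 73.5 CPM at the lowest, 89.8 at the median and 107 at the highest on HF, and 57.7 CPM at the lowest, 64.2 at the median and 76.6 at the highest on HFCF. The male groups overlapped slightly, and Apom fell by 25.5% (-0.43 ± 0.10 (SE), adjusted p = 0.00652). Male HF labelled knockouts had 105 CPM at the lowest, 111 at the median and 133 at the highest, higher than HF controls with partial overlap (0.33 ± 0.09 (SE), adjusted p = 0.0189). A single fit of all 48 libraries did not call it (0.34, adjusted p = 0.175). Male HFCF labelled knockouts had 59.1 CPM at the lowest, 74.1 at the median and 94.0 at the highest, all below those on HF (-0.59 ± 0.10 (SE), adjusted p = 0.00023). Every male HF control was below every female HF control, and Apom was 1.79-fold higher in females (-0.84 ± 0.16 (SE), adjusted p = 0.00411).

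In labelled-knockout females the HDL apolipoproteins turned on 1 liver. Female HFCF labelled knockouts had Apom at 77.3, 95.8, 99.1 and 225 CPM, Apoa1 at 5333, 6749, 7259.8 and 10401 CPM and Apoa2 at 3759.8, 3841, 4792 and 7992 CPM. In each gene the highest value was replicate 1. With all livers, HFCF against LF gave Apom -0.84 (adjusted p = 0.0669), Apoa1 -0.61 (adjusted p = 0.108) and Apoa2 -0.27 (adjusted p = 0.501) on the log2 scale. Without replicate 1 all 3 were called, at -1.29 ± 0.14 (SE), adjusted p = 0.000464 for Apom, -0.83 ± 0.19 (SE), adjusted p = 0.0121 for Apoa1 and -0.58 ± 0.15 (SE), adjusted p = 0.0208 for Apoa2. The count of called genes then rose from 2 to 5, beside 23.8% of all genes. Against HF the count rose from 1 to 5, beside 29.1%, with Apoa1, Apoa2, Apom and Scarb1 lower and Apoa4 higher.

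Apoa4 encodes an apolipoprotein of chylomicrons, VLDL and HDL that is also made in the gut (ENSMUSG00000032080, chr9:46240696-46243459, plus strand). Male HF controls had 1037 CPM at the lowest, 1285 at the median and 1694 at the highest, and male HF labelled knockouts 309 CPM at the lowest, 495 at the median and 1005 at the highest. No labelled knockout reached the lowest control. Apoa4 fell by 58.1% (-1.25 ± 0.25 (SE), adjusted p = 0.00281), the widest difference of the 10 genes in that comparison. On HFCF, male controls had 858 CPM at the lowest, 1241 at the median and 1762 at the highest and male labelled knockouts 869 CPM at the lowest, 1144 at the median and 2102 at the highest. These overlapped almost throughout (0.07 ± 0.22 (SE), adjusted p = 0.927). The change of the labelled-knockout difference between diets was 1.31 ± 0.36 (SE), adjusted p = 0.0616, which was not a call. Within labelled-knockout males Apoa4 rose 2.49-fold from HF to HFCF with partial overlap (1.32 ± 0.29 (SE), adjusted p = 0.00183), and in control males the change was 0.01 ± 0.18 (SE), adjusted p = 0.972.

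Female controls had Apoa4 at 242, 301, 370.1 and 422 CPM on LF and 423, 764, 787 and 857 CPM on HFCF. The lowest HFCF liver was just above the highest LF liver, and Apoa4 rose 2.11-fold (1.08 ± 0.23 (SE), adjusted p = 0.00578). On HF they had 184, 279, 491 and 1372 CPM, where the highest value is replicate 1. HFCF against HF gave 0.29 ± 0.55 (SE), adjusted p = 0.711, and without that replicate 1.16 ± 0.33 (SE), adjusted p = 0.0165. Labelled-knockout females had 174, 212, 361 and 533 CPM on LF, 149, 167, 203 and 472 CPM on HF and 434, 969, 978 and 1090.1 CPM on HFCF. All HFCF livers but replicate 1 lay above every LF and HF liver. Apoa4 rose 2.81-fold against LF (1.49 ± 0.36 (SE), adjusted p = 0.0223) and rose 3.53-fold against HF (1.82 ± 0.40 (SE), adjusted p = 0.0165). The call against LF was lost without LF replicate 2 or 3 or HFCF replicate 2, 3 or 4. The call against HF was lost without HF replicate 4 or HFCF replicate 4. Males against females gave 1.17 ± 0.45 (SE), adjusted p = 0.091 in HF controls, and 2.04 ± 0.28 (SE), adjusted p = 0.000185 without female HF control replicate 1.

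Apoa4 and its neighbours took opposite directions on chromosome 9, where Apoa1, Apoc3, Apoa4 and Apoa5 lie within 43340 bases. Apoc3 encodes an inhibitor of lipoprotein lipase and Apoa5 an activator. In control females HFCF against LF, Apoa1 changed by -0.81, Apoc3 by -1.23 (adjusted p = 0.00032) and Apoa5 by -1.12 (adjusted p = 0.000805) on the log2 scale, all lower, while Apoa4 was higher by 1.08. The same directions were called in labelled-knockout males HFCF against HF, with Apoc3 at -0.49 (adjusted p = 0.000451) and Apoa5 at -0.41 (adjusted p = 0.00737). In HF males the directions were the other way round, with Apoc3 higher in labelled knockouts at 0.39 (adjusted p = 0.000968), and Apoa5 not called at 0.10 (adjusted p = 0.535). The chromosome 7 cluster of Apoe, Apoc1, Apoc4 and Apoc2 spans 27610 bases. There the difference of labelled knockouts from controls in HF males was 0.40 for Apoc1 and 0.33 (adjusted p = 0.00237) for Apoc4, both called, against -0.02 (adjusted p = 0.909) for Apoe and 0.63 (adjusted p = 0.0878) for Apoc2. Whether neighbours in a cluster differ from each other was not tested.

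**Figure D3:**
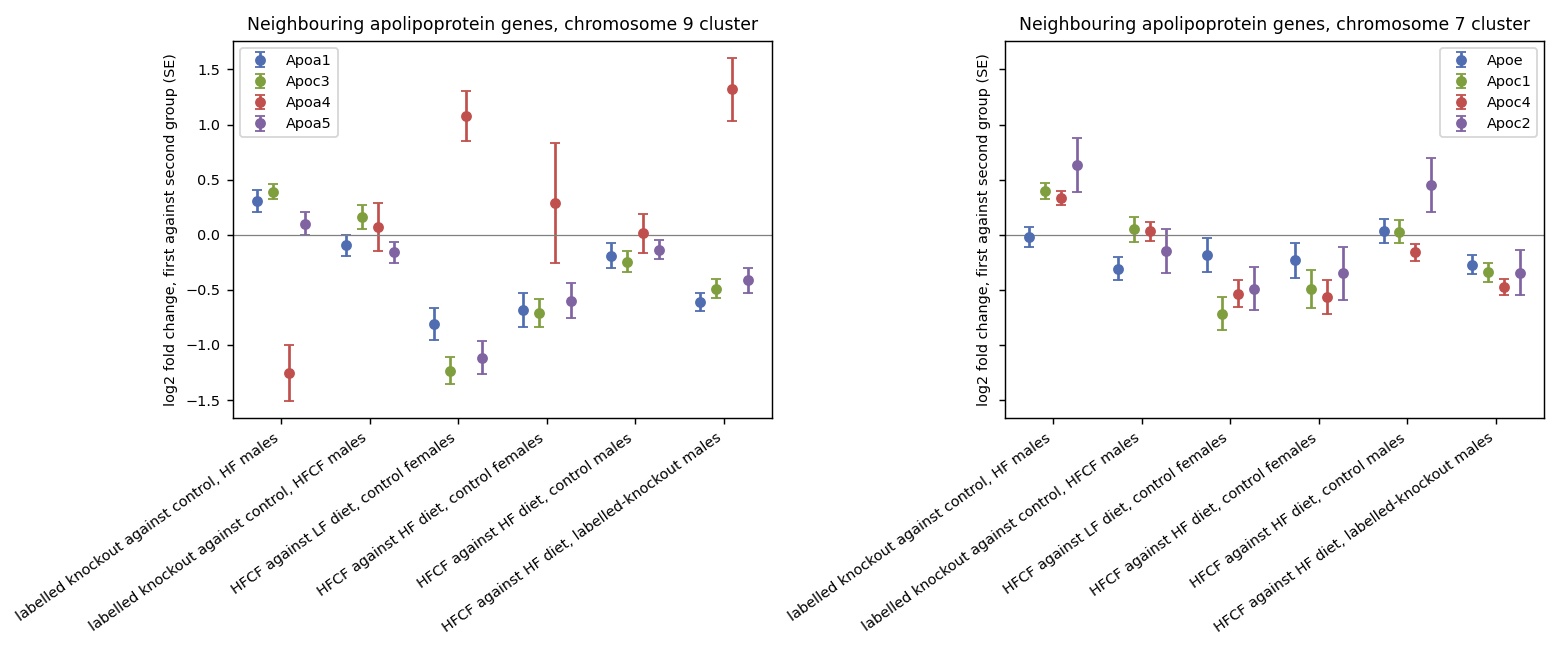
The log2 fold changes (vertical axis, bars show the SE) of neighbouring apolipoprotein genes in 6 comparisons (horizontal axis), for the clusters on chromosome 9 (left) and chromosome 7 (right). Apoa4 lies at -1.25 in HF males, where Apoa1 and Apoc3 lie above 0, and at 1.32 in labelled-knockout males on HFCF, where they lie below 0.

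Pltp encodes the phospholipid transfer protein that remodels HDL (ENSMUSG00000017754, chr2:164839518-164857711, minus strand). Male HF controls had 59.4 CPM at the lowest, 95.8 at the median and 126 at the highest, and male HF labelled knockouts 37.5 CPM at the lowest, 49.6 at the median and 54.7 at the highest. The groups did not overlap. Pltp fell by 48.7% (-0.96 ± 0.15 (SE), adjusted p = 0.000514), in each of 12 fits that left out 1 liver. On HFCF, controls had 71.9 CPM at the lowest, 84.2 at the median and 109.6 at the highest and labelled knockouts 64.7 CPM at the lowest, 83.3 at the median and 108 at the highest. These overlapped, with a difference of -0.12 ± 0.13 (SE), adjusted p = 0.753. The test of the difference between diets gave 0.83 ± 0.22 (SE), adjusted p = 0.0505, which narrowly missed the threshold. Leaving out HF control replicate 2 or HF labelled-knockout replicate 4 made 2 of the 10 genes a call in this test. Leaving out HF control replicate 3 or 4, HF labelled-knockout replicate 6, HFCF control replicate 1 or 2, or HFCF labelled-knockout replicate 4, 5 or 6 made 1 a call. These counts are of the 10 genes together, not of Pltp alone. Without HFCF control replicate 1 the test called 1.85% of all genes, against 1.56% with all livers. The share in the other fits is not given here. Within labelled-knockout males Pltp rose 1.75-fold from HF to HFCF without overlap (0.80 ± 0.13 (SE), adjusted p = 0.000152), and in control males the change was -0.02 ± 0.16 (SE), adjusted p = 0.936.

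In females Pltp was far more scattered on LF and HF. Controls had 48.1, 81.6, 185 and 235 CPM on LF, 29.2, 45.6, 67.1 and 121 CPM on HF and 119.5, 141, 160.0 and 174 CPM on HFCF. The highest HF liver, replicate 1, reached into the HFCF range. HFCF against HF gave a 2.26-fold rise (1.18 ± 0.37 (SE), adjusted p = 0.0369), a call lost without any 1 of the other 7 livers and kept without HF control replicate 1 (1.66 ± 0.24 (SE), adjusted p = 0.000633). HFCF against LF gave 0.11 ± 0.40 (SE), adjusted p = 0.855, with the LF livers on either side of the HFCF livers. Labelled-knockout females had 76.9, 143, 196 and 355 CPM on LF, 44.5, 79.7, 102 and 119 CPM on HF and 82.9, 101, 108 and 128 CPM on HFCF, and no diet comparison among them was called. All male HFCF controls were below all female HFCF controls, by -0.72 ± 0.13 (SE), adjusted p = 0.0111 on the log2 scale, a call lost without female HFCF control replicate 1 and in a single fit of all 48 libraries (-0.73, adjusted p = 0.323). Without female HF control replicate 1 the difference between the sexes in the labelled-knockout effect on HF was called for Pltp (-1.82 ± 0.37 (SE), adjusted p = 0.0178) and Apoc1 (0.44 ± 0.11 (SE), adjusted p = 0.0425), beside 1.88% of all genes. Pltp overlaps Ctsa, a lysosomal protease gene on the opposite strand with up to 5503 reads in a library against 472 in the lowest library for Pltp. The libraries were not strand specific, so reads in the overlap cannot be told apart. Ctsa itself changed by -0.24 ± 0.08 (SE), adjusted p = 0.0434 in HF males.

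Scarb1, the receptor for selective uptake of cholesterol from HDL (ENSMUSG00000037936, chr5:125277087-125341094, minus strand), changed little. Male HF controls had 206 CPM at the lowest, 219 at the median and 239.9 at the highest, and male HFCF controls 226 CPM at the lowest, 247 at the median and 290.3 at the highest. The groups overlapped, and Scarb1 rose 1.15-fold (0.20 ± 0.07 (SE), adjusted p = 0.0471), its 1 call. It was lost without HF replicate 1, 4, 5 or 6 or HFCF replicate 2, 3, 4 or 5. It was also lost with DESeq2's size factors (0.20, adjusted p = 0.0515), with no filter (0.18, adjusted p = 0.126) and in a single fit of all 48 libraries (0.17, adjusted p = 0.171). Over the 15 comparisons its log2 fold change ran from -0.29 to 0.29.

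The HFCF response of control females and control males was compared directly. HFCF against HF gave Apoa1 -0.68 in females and -0.19 in males, Apom -0.92 and -0.43, and Pltp 1.18 and -0.02 on the log2 scale. The test of the difference between the sexes called 0 of the 10 by edgeR, beside 0.00646% of all genes, with 6 at an unadjusted p under 0.05, beside 16.5%, and 1 by DESeq2's Wald test. Without female HF control replicate 1 it called 6, beside 10.8%. These were Pltp at -1.67 ± 0.30 (SE), adjusted p = 0.00296, and Apoc1, Apoa1, Apoa2, Apom and Scarb1, whose change was the more positive in males. Without that liver HFCF against HF in control females called 7 of the 10, beside 43.6%, and males against females in HF controls 7, beside 34.4%. These last comparisons share the female HF controls, so their counts are set side by side only.

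Other apolipoprotein genes are given by comparison. In control females HFCF against LF, 6 of 8 tested fell and 0 rose, beside 35.2% of all genes called, 18.4% higher and 16.8% lower, with a median log2 fold change of -0.93 against -0.02 over all genes. Apoc3 and Apoa5 (values above) and Apoh, a phospholipid-binding plasma protein at -1.10 (adjusted p = 0.000434), had the widest changes of this list there. The count was also 6 lower and 0 higher in control females HFCF against HF (30.8% of all genes called, 16.9% higher and 13.8% lower) and in labelled-knockout males (41.7% of all genes called, 21.6% higher and 20% lower). It was 2 lower and 1 higher in control males (22.3% of all genes called, 13% higher and 9.31% lower), where the 1 was Clu, clusterin, at 0.23 (adjusted p = 0.0338), named after its values were seen. In labelled-knockout females it was 2 lower against LF (12% of all genes called, 8.25% higher and 3.74% lower) and 0 against HF (14.5% of all genes called, 8.44% higher and 6.01% lower). In HF males 5 of 8 rose in labelled knockouts and 0 fell, beside 18.5% of all genes called, 8.57% higher and 9.88% lower, with a median of 0.43 against 0.000206 over all genes. Apoc2, the activator of lipoprotein lipase, was lower in male than in female HF controls at -1.14 (adjusted p = 0.0192).

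For genes of VLDL assembly and export, 2 of 14 rose and 4 fell in control females HFCF against LF, a share near that of all genes (35.2% of all genes called, 18.4% higher and 16.8% lower). Sort1, a sorting receptor that binds apolipoprotein B, rose by 1.64 (adjusted p = 0.00281), and Apobec1, which edits Apob mRNA, by 0.90 (adjusted p = 0.00171) on the log2 scale. Tm6sf2, which aids VLDL lipidation, fell by 0.76 (adjusted p = 0.00248). In HF males 2 rose and 1 fell, again near the share of all genes (18.5% of all genes called, 8.57% higher and 9.88% lower), with Tm6sf2 at 0.58 (adjusted p = 0.000951) and Sort1 at -0.81 (adjusted p = 0.016) in labelled knockouts against controls. In HFCF males the 1 call of the 14, beside 2.21% of all genes, was Tm6sf2, higher at 0.53 (adjusted p = 0.0481). HFCF against HF called 8 of the 14 in control females, 3 higher and 5 lower, beside 30.8% of all genes (16.9% higher and 13.8% lower). In control males it called 8, 2 higher and 6 lower, beside 22.3% (13% and 9.31%). In labelled-knockout males it called 11, 2 higher and 9 lower, beside 41.7% (21.6% and 20%). Labelled-knockout females gave 3 against HF, 2 higher and 1 lower, beside 14.5%. Against LF they gave 2, 1 higher and 1 lower, beside 12%. Vmp1, which acts in lipoprotein release from the endoplasmic reticulum, was higher in male than in female HF controls at 0.73 (adjusted p = 0.00126).

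All 10 genes of HDL assembly and remodelling were called in control females HFCF against HF, 4 higher and 6 lower, beside 30.8% of all genes called, 16.9% higher and 13.8% lower. Abcg1, a cholesterol exporter also abundant in macrophages, changed by 1.80 (adjusted p = 0.00546), and Lipc, hepatic lipase, by -0.80 (adjusted p = 0.0276). The acute phase genes Saa1 and Saa2, whose proteins ride on HDL, changed by 1.07 (adjusted p = 0.0275) and 1.31 (adjusted p = 0.0172). In labelled-knockout males HFCF against HF, 4 rose and 4 fell, beside 41.7% of all genes called, 21.6% higher and 20% lower. Control females against LF had 4 higher and 3 lower, beside 35.2% (18.4% and 16.8%). Control males against HF also had 4 higher and 3 lower, beside 22.3% (13% and 9.31%). Labelled-knockout females had 2 higher and 1 lower against HF, beside 14.5% (8.44% and 6.01%). Against LF they had 3 higher and 2 lower, beside 12% (8.25% and 3.74%). In HF males, beside 18.5% of all genes called, 8.57% higher and 9.88% lower, 3 of 10 rose in labelled knockouts, with Lipc at 0.56 (adjusted p = 4.23e-05), and 1 fell, Abcg1 at -0.42 (adjusted p = 0.0374).

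Of the lipoprotein receptors and their regulators, Vldlr, a receptor for triglyceride-rich particles, changed by -0.75 (adjusted p = 0.00381) in control males HFCF against HF. Mylip, a ubiquitin ligase that lowers lipoprotein receptors, was higher at 0.32 (adjusted p = 0.0492), and in control females HFCF against HF it was higher at 0.76 (adjusted p = 0.00792). Vldlr was also lower in labelled knockouts than in controls in HF males, at -0.73 (adjusted p = 0.00709). Of the 8 genes of this list 1 was called higher and 1 lower there, beside 18.5% of all genes. Of 16 transcription factors that act on apolipoprotein genes, 9 fell and 0 rose in control females HFCF against LF (35.2% of all genes called, 18.4% higher and 16.8% lower), among them Foxa2 at -0.90 (adjusted p = 0.00158), Ppargc1b at -0.59 (adjusted p = 0.0112) and Rxra at -0.43 (adjusted p = 0.0334). Nr1h4, the bile acid receptor, fell against HF instead at -0.62 (adjusted p = 0.00778). In HF males 5 rose in labelled knockouts and 0 fell, beside 18.5% of all genes called, 8.57% higher and 9.88% lower, with Rxra at 0.28 (adjusted p = 0.0175).

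**Figure D4:**
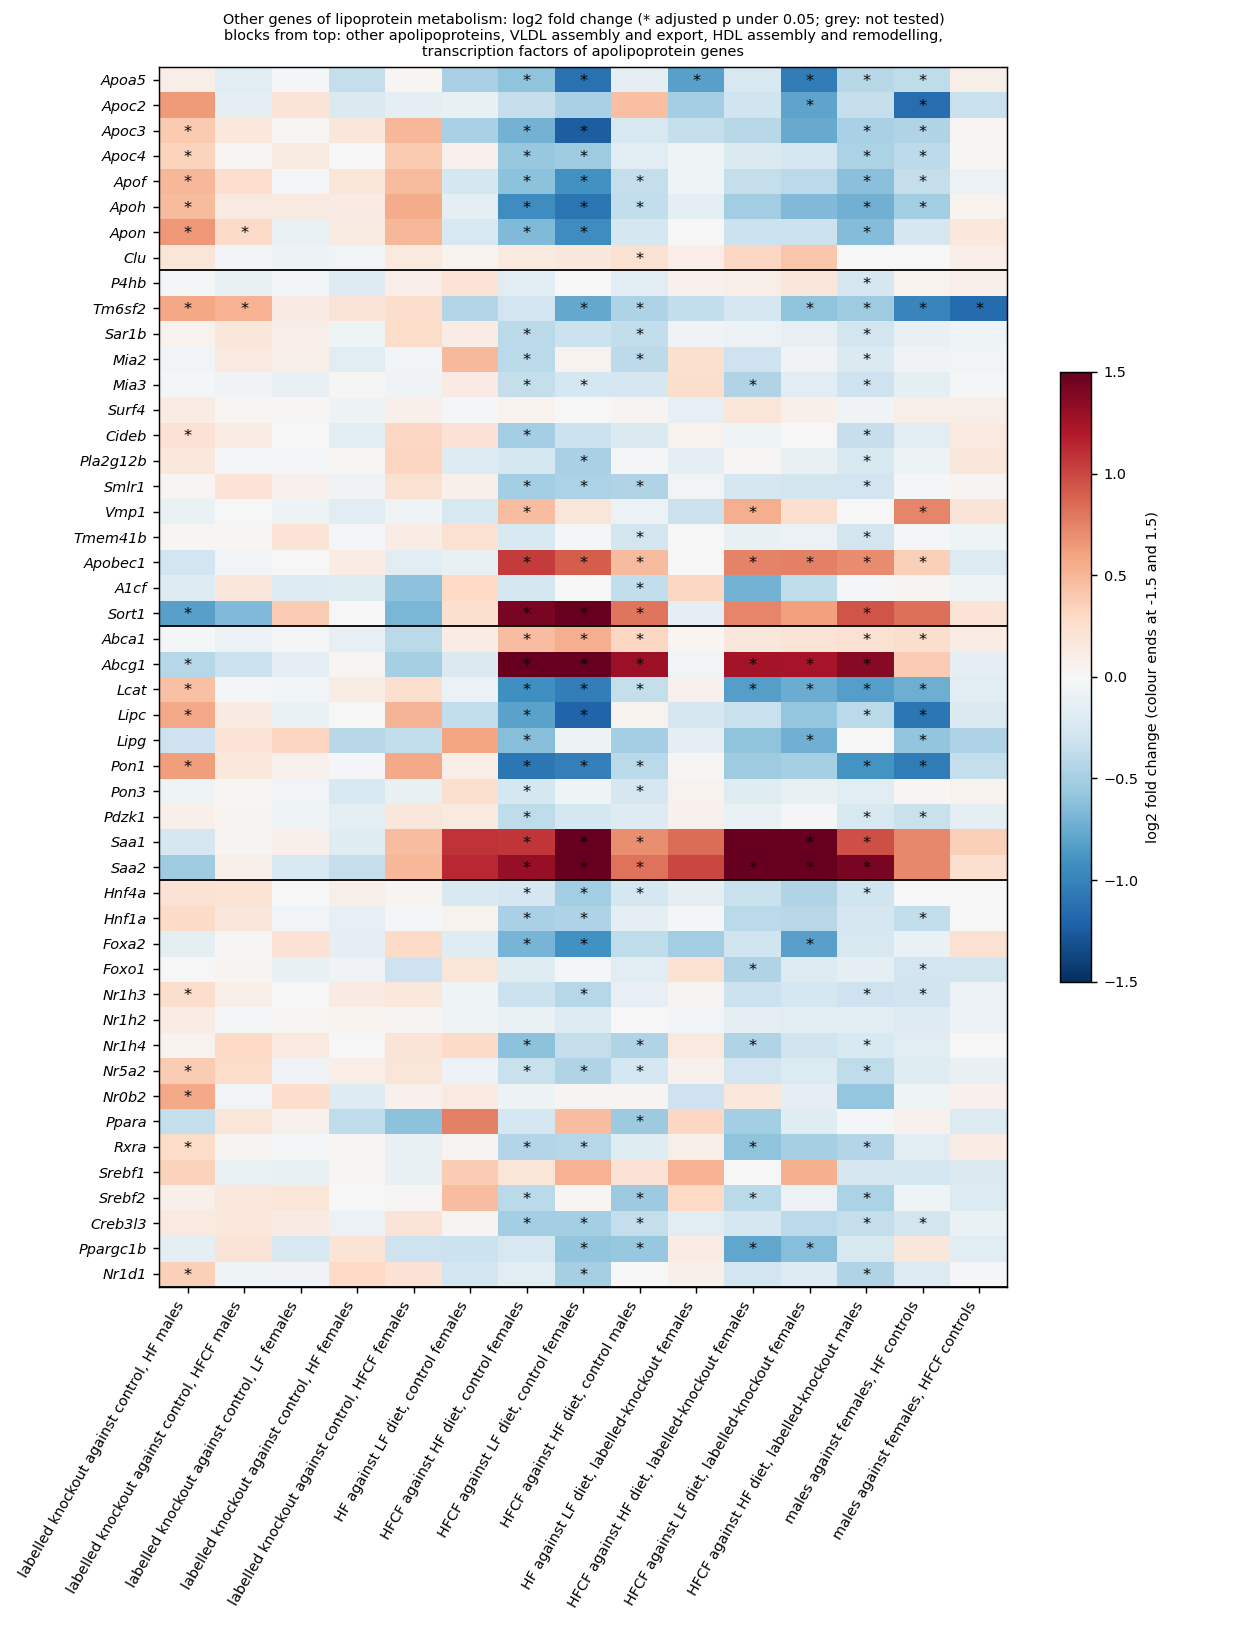
The log2 fold changes of other genes of lipoprotein metabolism (rows, in 4 blocks) in 15 comparisons (columns, first group against second); red is higher and blue lower in the first group, the scale ends at -1.5 and 1.5, stars mark adjusted p under 0.05. In the column of HFCF against LF in control females, 6 of the 8 genes of the top block are starred and blue.

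Cell type markers also differed between groups, and their counts stand beside these shares of all genes called. In HF males, labelled knockouts against controls, the share was 18.5%, with 8.57% higher and 9.88% lower. In control females HFCF against LF it was 35.2%, with 18.4% higher and 16.8% lower. In labelled-knockout males HFCF against HF it was 41.7%, with 21.6% higher and 20% lower. The summed CPM of 6 hepatocyte markers ran from 49544 to 62216 in female HFCF controls, 82051 to 96700 on HF and 80265 to 107660 on LF. It ran from 83173 to 96854 in male HF labelled knockouts against 55530 to 77751 in their controls, where 6 of 6 markers were higher. The summed CPM of 8 monocyte-derived and lipid-associated macrophage markers ran from 765.3 to 1189 in female HFCF controls against 214 to 380 on LF, with 8 of 8 called higher. In labelled-knockout males HFCF against HF, 5 of 6 hepatocyte markers were lower and 8 of 8 macrophage markers higher. In HF males the macrophage sum ran from 191 to 273 in labelled knockouts against 253 to 399 in controls, with 4 of 8 lower. Stellate cell and myofibroblast markers were lower in HF male labelled knockouts in 3 of 6 and higher in female HFCF controls than on LF in 4 of 6, and all 4 cholangiocyte markers were higher there. Blood markers were higher in HF male labelled knockouts in 3 of 3, with a sum of 153.9 to 719 CPM against 152 to 221 in controls. Of 5 resident Kupffer cell markers 1 was higher there and 0 lower. Of 4 adipocyte markers, Lep was not found by name and Adipoq and Retn were at 0 in both of those groups. The fourth, Cfd (adipsin), was 1.64 to 8.15 CPM in HF male controls and 0 to 0.0683 CPM in labelled knockouts, a call. In whole liver, fewer cells of a type and less RNA per cell cannot be told apart, and the part of cell makeup in the changes of the 10 genes was not tested. The mean hepatocyte marker sum was lower on HFCF in every comparison with LF or HF.

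**Figure D5:**
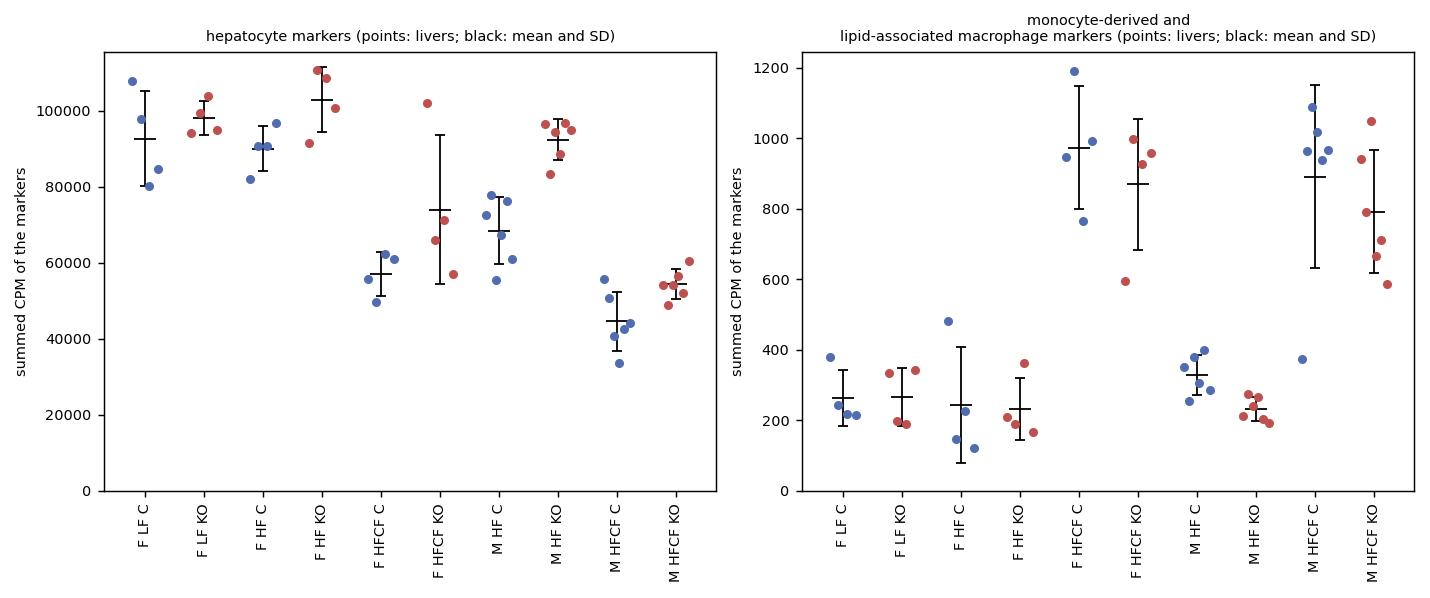
Summed CPM (vertical axes, from 0) of 6 hepatocyte markers (left) and 8 monocyte-derived and lipid-associated macrophage markers (right) by group (horizontal axes); points are livers and black marks the mean and SD. In female HFCF controls the hepatocyte sum stayed at or below 62216 and the macrophage sum at or above 765.3.

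The 3 genes whose log2 CPM followed each of the 10 most closely were listed over the 48 libraries, which share groups and diets, among 13438 genes. For Apom the first was Ahsg (Pearson r = 0.96) and for Apoa1 Apoh (0.92), both liver plasma protein genes. Apoa4 was most like 2010003K11Rik (0.93), Slc6a8 (0.91) and Cntnap1 (0.91). Pltp was most like Fabp5 (0.83), a fatty acid binding protein, then G6pdx (0.72) and Pnpla3 (0.72). Scarb1 had no close match, with a highest r of 0.66. Among the 10 genes themselves, Apoa1 and Apoa2 had r = 0.86, Apom with Apoa2 0.83, and Apom with Apoa4 -0.82.

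In the authors' deposited tables, which cover 11 of these comparisons, the count of the 10 genes with an adjusted p under 0.05 was 7 for labelled knockouts against controls in HF males, where Scarb1 joined the 6 called here. It was 7 in control females and 5 in control males for HFCF against HF, and 7 in labelled-knockout males. By edgeR the same comparisons called 18.5% of all genes in HF males and 30.8% in control females. They called 22.3% in control males and 41.7% in labelled-knockout males. In the authors' deposited tables HFCF males had 1, Apoe, and LF, HF and HFCF females 0 for labelled knockouts against controls. The share of all genes called in the authors' tables was not counted, so these counts stand without their own background.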

How the data were processed

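RNA-seq of 48 mouse livers was deposited by the authors as 11 tables of pairwise comparisons, each holding read counts per gene, FPKM and a log2 fold change with p-values and adjusted p-values. Per the submitters' processing notes the tools were STAR 2.6.1, HTSeq 0.6.1 and DESeq2, with the GRCm38 (mm10) build. The deposited counts were joined by gene identifier; 1158142 values repeated between tables did not differ, and 0 columns of sample values lacked a sample. In 1 female LF labelled-knockout sample the animal number differs between labels. Each comparison was fitted on its own groups with edgeR 4.0.16 (R 4.3.3): trimmed-mean-of-M-values scaling, edgeR's expression filter and quasi-likelihood tests, with Benjamini-Hochberg adjustment over all tested genes and a threshold of 0.05. The code was tested on simulated data. Other settings included DESeq2 1.42.0. The authors' FPKM compared levels between genes. Other genes of lipoprotein metabolism were named where called, at most 4 a list by size of change. Some genes of the receptor list are not reported here. The clusters' other genes were named by position. The 10 genes and all lists were chosen with earlier results of these data known.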

Additional observations from a re-analysis of the deposited data

Results flagged for a closer look

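In 12 of 100 sets of values (10 genes in 10 groups) 1 liver lay far from the others of its group by Dixon's test. Chance marks about 1 set in 20. Female HFCF labelled-knockout replicate 1 accounted for 3 of them: Apoe at 37385 CPM against 19223 to 21764 in the other livers, Apom at 225 CPM against 77.3 to 99.1, and Scarb1 at 276 CPM against 186 to 197.

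Male HFCF control replicate 1 gave another 3. It had Apoc1 at 2984 CPM against 1990 to 2205 CPM, Apoe at 30484 CPM against 21328 to 24396 CPM, and Apoa2 at 5510.1 CPM against 3601 to 4117 CPM.

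The other 6 were spread over 6 livers. Apoe was 26747 CPM in female HFCF control replicate 3 against 20269 to 20988 CPM. Apoa1 was 7201 CPM in female HF labelled-knockout replicate 1 against 9902 to 10296 CPM, and Apoa4 was 472 CPM in replicate 2 of that group against 149 to 203 CPM. Mttp was 298 CPM in female LF control replicate 1 against 447 to 448 CPM, and 261 CPM in female HFCF labelled-knockout replicate 2 against 274 to 277 CPM. Scarb1 was 206 CPM in male HF labelled-knockout replicate 4 against 255 to 279 CPM.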

How the results depend on the processing

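Of 32 calls for the 10 genes in the 15 comparisons, DESeq2's Wald test and a minimum of 10 reads in every library kept 32, DESeq2 size factors and no filter 31 each, 1 fit of all 48 libraries 27, and none reversed. The count of called genes moved by over 1.5 times as follows. By the Wald test it was 1 in HFCF males (labelled knockouts against controls), 7 in control females HFCF against HF, 4 in labelled-knockout females HFCF against LF, 4 for each comparison of the sexes, 3 for the diet dependence of the labelled-knockout difference in males and 1 for the sex dependence of the diet difference in controls. With all 48 libraries in 1 fit it was 3 in HF males, 4 in labelled-knockout females HFCF against LF and 0 for the sexes in HFCF controls. Without the filter these last 2 were 4 and 2, and the diet dependence in males was 1, as it was with at least 10 reads. The cause was not tested. Leaving out 1 liver at a time gave 4 to 6 calls in HF males, 3 to 7 in control females HFCF against HF, 5 to 6 against LF, 2 to 5 in control males, 0 to 5 in labelled-knockout females against HF and 0 to 5 against LF, 7 to 8 in labelled-knockout males, 1 to 7 for the sexes on HF and 0 to 2 on HFCF. Without male HFCF control replicate 3, 4 or 5 the count in control males was 2. Without female HF labelled-knockout replicate 3 the count for HFCF against HF in labelled-knockout females was 2. The range was 0 to 2 for the diet dependence in males, 0 to 2 for the sex dependence of the labelled-knockout difference on HF and 0 to 6 for that of the diet difference in controls. It was 0 to 0 for the rest. The share of all genes called also moved between fits. For HFCF against HF in control females it was 30.8% with all livers and 43.6% without female HF control replicate 1. Where no share is given, a count describes the fit and not the 10 genes alone.

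The samples were not treated as paired by replicate number. In no comparison did every same-numbered pair correlate over 0.1, but some pairs did. The highest r was 0.34, for HF against LF in control females. Such a check cannot exclude pairing. A replicate block kept 20 of the 32 calls. With it the count was 0 in control females HFCF against HF, 1 against LF, 0 for the sexes in HFCF controls and 1 for the diet dependence in males.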
